A study of Mus musculus with 2 samples.

Results

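The receptors described here are cell-surface proteins that couple to G proteins and bind histamine, acetylcholine, prostaglandin E2, adenosine, adrenaline and noradrenaline, dopamine or serotonin. Their genes were chosen by symbol alone, as those whose mouse symbol begins with Hrh, Chrm, Ptger, Adora, Adra, Adrb or Drd and a number, or with Htr and 1, 2, 4, 5, 6 or 7. The Htr3 genes, which encode ion channels, and the receptor kinase genes once named Adrbk were left out. This gave 43 genes of 37681 gene identifiers in the files. Of these, 19 were measured, meaning that they had at least 10 counts in 1 library or both, 10 had counts but fewer than that, and 14 had no count in either library.

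RNA had been sequenced from cells of the mouse stomach. The strain was C57BL/6, and both groups carried the same genotype, Hdc-CFP transgenic, in which a cyan fluorescent protein follows the activity of the histidine decarboxylase gene. The sorted library came from Hdc-CFP+ cells, whose cell type label says stomach and names no region. The depleted library came from epithelial cells of the corpus, the acid-producing body of the stomach, depleted of Hdc-CFP cells. The study asked about the origin of the Hdc-expressing cells. Each group held 1 library. The sources used here do not give the age, sex or number of the animals, and the reporter marks any cell in which the transgene is active, not 1 cell type.

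As background, acid secretion in the corpus is set by a short chain of signals. Enterochromaffin-like (ECL) cells release histamine when gastrin reaches them, histamine acts on H2 receptors of the neighbouring parietal cells, and acetylcholine from vagal nerves acts on muscarinic receptors of the same gland. Somatostatin and prostaglandins of the E series restrain acid secretion. Receptors that couple to Gs raise cyclic AMP, those that couple to Gi lower it, and those that couple to Gq release calcium inside the cell.

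Counts assigned to genes came to 10736538 in the sorted library and to 50928524, 4.74 times that, in the depleted one, so low values are less precise in the sorted library. Levels are normalised CPM, counts set relative to the scaled library size, and brackets hold 95% intervals for counting error alone. With single libraries no difference has a check by replicates, and p-values are not given. All 5 ECL markers were higher in the sorted library, and their levels summed to 76656 CPM against 229 CPM. Chga alone gave 63985 of the 76656 CPM. Hdc, at 8750 CPM, defined the sort, so its direction was set beforehand. The sum is thus not a measure of ECL cell content. The 8 parietal markers summed to 1947 CPM in the sorted library against 8870 CPM (6 lower), the 5 chief cell markers to 16645 against 66388 CPM (3 lower), and the 5 surface mucous markers to 3608 and 154418 CPM (4 lower, with Tff1 at 0 in both). Gif, at 493 CPM in the sorted library against 858 CPM and not called, is part of both the parietal and the chief cell sums. The 8 macrophage markers summed to 10.8 CPM against 2803 CPM, with 8 lower and none at 0. The 6 tuft cell markers summed to 16.6 and 208 CPM, with 5 lower and Pou2f3 and Gnat3 at 0 in the sorted library. The other direction was taken by the 10 mast cell markers (298 against 112 CPM, 7 higher, none at 0), the 7 neuron and glia markers (38.0 against 1.76 CPM, 4 of 4 measured higher, Sox10 among those at 0 in both) and the 3 markers of D cells and of ghrelin cells (5381 against 544 CPM, 3 higher). Fibroblast, endothelial and smooth muscle markers each summed to under 20 CPM in both libraries. In such bulk libraries, fewer cells of a type and less RNA per cell cannot be told apart.

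Subtypes of a single ligand's receptor were often divided between the libraries. Of the 19 measured receptor genes, 6 reached 2-fold or more in favour of the sorted library with an interval clear of equality (Ptger2, Adora2a, Hrh3, Chrm4, Adrb1 and Ptger3), and 6 were lower by the same rule, among them Hrh1, Ptger4, Hrh2, Adra2a and Chrm1. The other 7 were not called. Over all 16682 measured genes the rule called 21.9% higher and 21.9% lower. The median log2 fold of the 19 genes was -0.27, and that of all measured genes -0.04. The families of histamine, acetylcholine, prostaglandin E2 and adrenaline and noradrenaline each held at least 1 gene called in each direction. Since a gene counts as measured through the library where it is high, these counts describe the receptors and support no statement about receptors as a class.

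**Figure D1:**
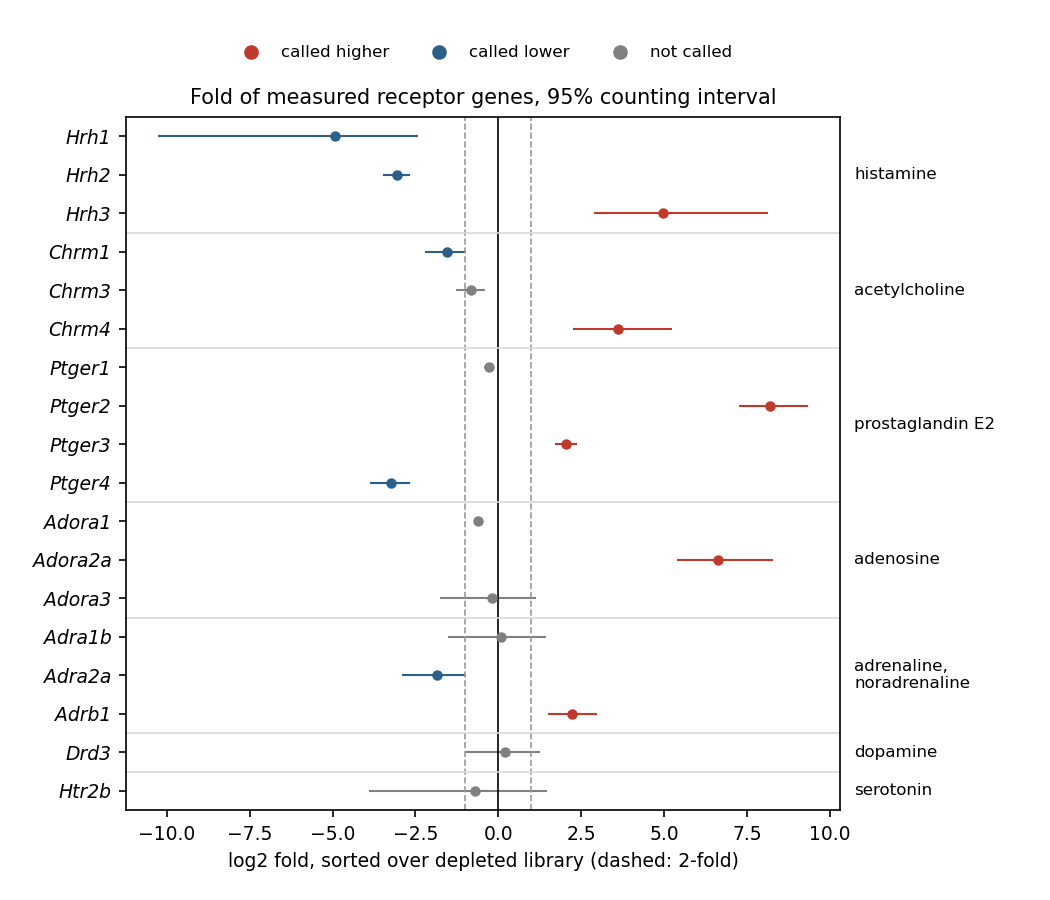
Log2 fold of 18 of the 19 measured receptor genes, sorted over depleted library, grouped by ligand; points are the ratio of normalised CPM, bars are 95% counting intervals, and dashed lines mark 2-fold. Ptger2 lies farthest to the right and Hrh1 farthest to the left, and the histamine, muscarinic, prostaglandin and adrenergic groups each have points on both sides.

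Histamine receptors differed in their shares between the libraries, though Hrh2 had the highest level per kilobase in both. Hrh2 (ENSMUSG00000034987) encodes the Gs-coupled receptor through which histamine drives acid secretion, and it had 52 counts (4.27 CPM) in the sorted library against 1604 (35.7 CPM). It was 8.37-fold lower there [6.35 to 11.2]. Parietal markers moved with it, Atp4a and Atp4b of the acid pump being 5.71-fold [5.60 to 5.82] and 5.54-fold lower [5.37 to 5.70], and their part in the Hrh2 value was not tested. Hrh1, the Gq-coupled receptor known from smooth muscle and endothelium, had 1 count against 113 and was lower by a ratio of 30.6 [5.39 to 1221]. Hrh3 (ENSMUSG00000039059), the Gi-coupled receptor known as the autoreceptor of histaminergic neurons, went the other way with 17 counts (1.40 CPM) against 2 (0.0445 CPM), a ratio of 31.3 [7.44 to 279.7]. Hrh4, a Gi-coupled receptor of leukocytes and mast cells, had 3 counts against 0, too few for a fold. On the scale of CPM per kilobase of exon, which allows genes of different length to be set side by side, Hrh2 made up 54.0% of the histamine receptor level in the sorted library and 91.2% in the depleted one, while Hrh3 made up 33.3% and 0.215%. In the sorted library the intervals of Hrh2 (0.720 [0.537 to 0.944]) and Hrh3 (0.444 [0.259 to 0.710]) overlapped on this scale. The total of the 4 genes fell from 6.60 CPM per kilobase in the depleted to 1.33 in the sorted library. On the same scale Hdc stood at 1369.6 and Slc18a2, which loads histamine into vesicles, at 651 in the sorted library. Hnmt, a methyltransferase gene of histamine breakdown, was 9.67-fold lower there [4.37 to 26.7], and the amine oxidase gene Aoc1 had 3 counts against 14. Of the 4 genes of histamine supply and breakdown, all measured, 2 were higher and 1 lower (median log2 fold 3.92), and Hdc defined the sort.

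The promoter windows of Hrh3 and Hrh2 are shown because these receptors of the same ligand lay on opposite sides. Each runs from 250 bases before to 50 after the annotated start, 5′ to 3′, as RefSeq gives it on GRCm38.p6, whereas the counts were made on mm9. Capitals mark the GC box GGGCGG and the E-box CANNTG, searched on both strands. GGGCGG or its complement occurs in 35.7% and CANNTG in 72.3% of 32851 windows of this length, and the median window holds 52.7% G and C. The Hrh3 window (chr2:180104358-180104657, minus strand) has 79.0% G and C, 5 GC boxes, of which a pair overlap each other, and 1 E-box. The Hrh2 window (chr13:54191883-54192182, plus strand) has 61.3% G and C and 1 GC box, with no match to CANNTG. Neither holds TATAAA, present in 13.6% of windows, or the cyclic AMP element TGACGTCA, present in 1.79%. A match describes letters and is not a site.
Hrh3: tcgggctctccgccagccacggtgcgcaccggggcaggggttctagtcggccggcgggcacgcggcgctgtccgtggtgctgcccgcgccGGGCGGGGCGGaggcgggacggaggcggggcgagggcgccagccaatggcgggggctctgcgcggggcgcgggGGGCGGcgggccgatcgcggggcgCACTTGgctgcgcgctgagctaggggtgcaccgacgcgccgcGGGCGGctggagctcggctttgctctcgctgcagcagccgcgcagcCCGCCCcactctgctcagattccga
Hrh2: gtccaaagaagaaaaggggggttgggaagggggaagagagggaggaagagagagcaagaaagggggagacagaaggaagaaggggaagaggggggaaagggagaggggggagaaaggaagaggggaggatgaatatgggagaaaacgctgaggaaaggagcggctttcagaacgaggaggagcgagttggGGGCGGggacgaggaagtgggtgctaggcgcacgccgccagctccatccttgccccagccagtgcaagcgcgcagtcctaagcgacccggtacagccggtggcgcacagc

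Prostaglandin E2 receptors included the largest fold of all measured receptors. Ptger2 (ENSMUSG00000037759), the Gs-coupled EP2 receptor, had 715 counts in the sorted library (58.7 CPM [54.5 to 63.2]) against 9 (0.200 CPM [0.0916 to 0.380]). It was 293-fold higher [153 to 643], and 99.36% of measured genes with a fold had a lower one. Ptger4, the EP4 receptor, which couples to Gs as well, had 25 counts (2.05 CPM) against 876 (19.5 CPM) and was 9.50-fold lower [6.39 to 14.8]. These receptors of the same ligand and G protein thus differed in opposite directions, by folds of unlike size. Macrophage markers, all 8 lower, moved with Ptger4, and their part in its value was not tested. The exons of Ptger4 overlap those of Ttc33 and Gm15937, on the opposite strand, over 16.5% of their bases, and Ttc33 was 2.38-fold higher in the sorted library [2.12 to 2.67].

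Ptger3, the EP3 receptor, which couples mainly to Gi, had 153 counts (12.6 CPM) in the sorted library against 137 (3.05 CPM), and was 4.12-fold higher [3.25 to 5.22]. Ptger1, the EP1 receptor, had 470 counts (38.6 CPM) against 2092 (46.6 CPM), 1.21-fold lower [1.09 to 1.34], which did not reach 2-fold. Of the exon bases of Ptger1, 71.0% overlap exons on the opposite strand. Since the strand setting of the counting was not given, reads of the strands cannot be told apart, and the values of Ptger1 are uncertain. Per kilobase, Ptger2 took 54.1% of the family's level in the sorted library against 0.320%, and Ptger4 took 1.48% and 24.4%. The family's level includes Ptger1, at 33.8% and 70.9%, so these shares are as uncertain as its values.

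The promoter windows of Ptger2 and Ptger4 are shown for the same reason, with the same capitals. The Ptger2 window (chr14:44987861-44988160, plus strand) has 37.7% G and C, no match to GGGCGG and 3 to CANNTG. The Ptger4 window (chr15:5244138-5244437, minus strand) has 67.0% G and C, 4 matches to GGGCGG on its complementary strand, of which a pair overlap each other, and none to CANNTG. Neither holds TATAAA or TGACGTCA.
Ptger2: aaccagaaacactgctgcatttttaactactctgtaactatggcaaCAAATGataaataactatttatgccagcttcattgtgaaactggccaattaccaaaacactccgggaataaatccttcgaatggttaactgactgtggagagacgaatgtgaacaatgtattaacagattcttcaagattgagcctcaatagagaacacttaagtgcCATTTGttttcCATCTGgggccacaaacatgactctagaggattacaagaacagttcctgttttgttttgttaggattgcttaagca
Ptger4: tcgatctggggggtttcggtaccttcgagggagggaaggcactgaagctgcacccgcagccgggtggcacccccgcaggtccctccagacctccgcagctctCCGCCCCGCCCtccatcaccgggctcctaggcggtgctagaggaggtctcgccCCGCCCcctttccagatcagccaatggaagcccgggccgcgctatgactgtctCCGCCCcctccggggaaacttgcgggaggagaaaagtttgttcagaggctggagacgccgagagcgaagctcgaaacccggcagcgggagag

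Genes that make, carry and break down prostaglandins lay mostly on the depleted side. Of the 12, all measured, 8 were lower in the sorted library, 1 was higher and 3 were not called, and the median log2 fold was -1.96. Over all measured genes 21.9% were called lower and 21.9% higher. Ptgr1, a prostaglandin reductase, had 80.6 against 2691 CPM and was 33.4-fold lower [31.4 to 35.6]. Hpgd, whose dehydrogenase begins prostaglandin breakdown, was 16.2-fold lower [13.6 to 19.6]. The carbonyl reductase gene Cbr1 was 4.91-fold lower [4.63 to 5.22], and Slco2a1, the prostaglandin transporter, 2.11-fold lower [1.96 to 2.27]. Scaled by the library total alone, Slco2a1 was 1.64-fold lower and was not called. Ptges, a prostaglandin E synthase named after its value was seen, was the 1 higher member, with 21 counts against 15 (5.16-fold [2.54 to 10.8]). The other synthase genes of the list, also named with their values known, were not higher. Ptges2 and Ptges3 were not called, Ptgs1 had 0 counts against 1343, and Ptgs2 had 7 against 139 (5.38-fold lower [2.55 to 13.6]). Among 5 genes of receptors for other prostanoids 2 were measured, both named after their values were seen. Ptgdr, a receptor of prostaglandin D2, had 15 counts against 0. That is at least 13.2-fold higher by the counting interval, and 18.4-fold when 3 counts are allowed for the 0. Ptgfr, the receptor of prostaglandin F2alpha, was 5.42-fold lower on 5 counts against 100 [2.25 to 17.1].

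Adenosine receptors included the gene with the second largest fold. Adora2a (ENSMUSG00000020178), a Gs-coupled receptor, had 135 counts (11.1 CPM) in the sorted library against 5 (0.111 CPM), 99.6-fold higher [41.6 to 312]. Adora1, a Gi-coupled receptor, was high in both, with 738 counts (60.6 CPM) against 4203 (93.6 CPM). The sorted library was 1.54-fold lower [1.43 to 1.67], less than 2-fold. Its exons overlap those of Mybph over 20.1% of their bases, but Mybph had 1 and 2 counts. Adora3 had 6 counts against 25, lower by a ratio of 1.13 [0.452 to 3.37]. A same-strand gene, Tmigd3, covers 20.9% of the exon bases of Adora3 and had 37 counts against 4, so the division of reads between them is uncertain. Adora2b, the other Gs-coupled adenosine receptor, had 1 count in each library. Adora1 thus made up 98.8% of the family's level per kilobase in the depleted library and 73.4% in the sorted library, where Adora2a made up 25.4%.

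Of 9 measured genes of adenosine production and uptake, 2 were higher and 3 lower (median log2 fold -0.69). The rule called 21.9% of all measured genes in each direction, so these counts set the list apart in neither. Slc29a1, an equilibrative nucleoside transporter, was 5.54-fold higher in the sorted library [5.20 to 5.91] at 194.7 CPM. Among the genes of enzymes that act on nucleotides outside the cell, Nt5e was 16.5-fold [14.1 to 19.5] and Entpd1 37.1-fold lower [20.7 to 74.5]. Entpd3 went the other way, at 14 counts against 4, a 12.9-fold higher level in the sorted library [4.05 to 53.8], and Entpd2 and Enpp1 were not called; these 3 were chosen with their values known. Adk, which phosphorylates adenosine, stood at 51.1 CPM against 35.4 CPM, a ratio of 1.44 [1.31 to 1.58] that was not called.

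Muscarinic receptors were low in both libraries. Chrm3, the Gq-coupled M3 receptor known from parietal cells and glands, had 51 counts (4.19 CPM) against 334 (7.44 CPM), 1.78-fold lower [1.32 to 2.43], short of the 2-fold limit. Chrm1, the Gq-coupled M1 receptor, had 25 counts (2.05 CPM) against 272 (6.06 CPM) and was 2.95-fold lower [1.96 to 4.64]. Chrm4, a Gi-coupled receptor, had 20 counts (1.64 CPM) against 6 (0.134 CPM) and was 12.3-fold higher [4.76 to 37.4]. Chrm2 and Chrm5 had no count. Chrm4 made up 53.6% of the family's level per kilobase in the sorted library against 4.19%, while the family's total was 2.13 and 2.22 CPM per kilobase. That sorted share rests on 20 counts, and the interval of Chrm4 (1.14 [0.697 to 1.76]) overlapped that of Chrm3 (0.670 [0.499 to 0.881]). It also depends on the exon length used, as the longest Chrm3 transcript holds 4336 of its 6253 exon bases. Of 4 genes of acetylcholine supply and breakdown found in the files, Chat, the synthesis enzyme, had 1 and 3 counts and the choline transporter gene Slc5a7 had 0 in both. Of the esterase genes, the 2 measured, Ache was 14.8-fold higher [10.6 to 21.2] and Bche 20.4-fold lower [14.1 to 30.8], and the median log2 fold was -0.23.

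**Figure D2:**
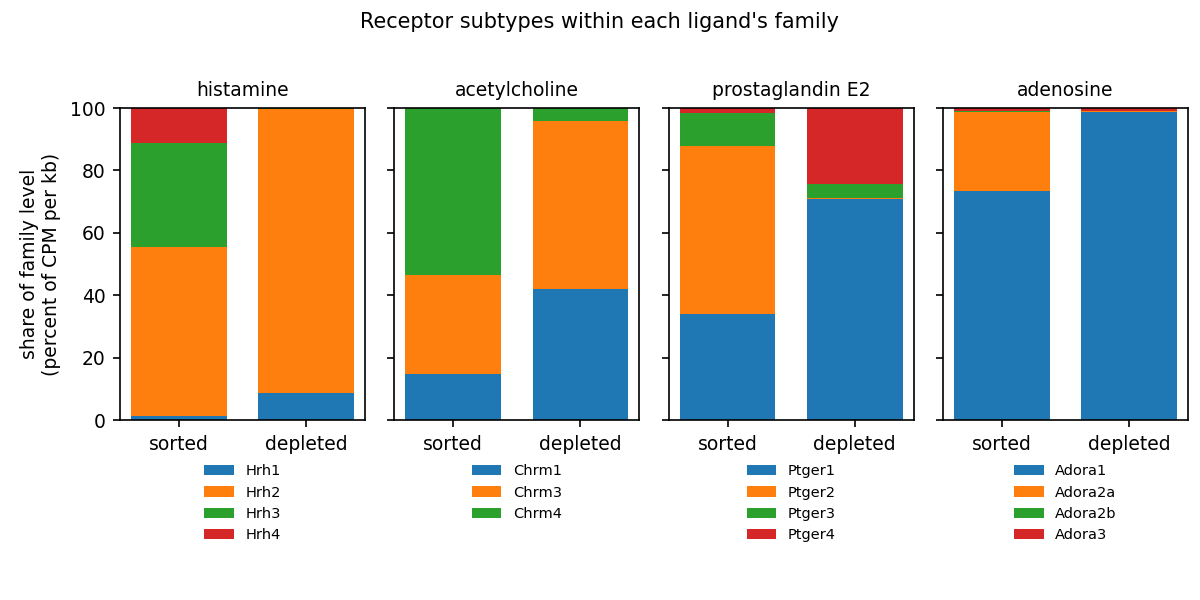
Share of each family's summed level (normalised CPM per kilobase of exon, percent) taken by each receptor gene with a count, for 4 ligands in the sorted and the depleted library, with 1 library per bar. Genes such as Ptger2, Chrm4, Hrh3 and Adora2a take larger shares in the sorted library. Hrh2, Ptger1, Ptger4, Adora1, Chrm1 and Chrm3 are among those with larger shares in the depleted one. Shares carry no interval and hold for the exon length used, and the values of Ptger1 are uncertain. The Hrh4 share in the sorted library rests on 3 counts.

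Receptors of adrenaline and noradrenaline were low in the sorted library. Adrb1, a Gs-coupled beta-adrenergic receptor gene, had 38 counts (3.12 CPM) there against 30 (0.668 CPM) and was 4.67-fold higher [2.82 to 7.81]. Its level per kilobase was 0.923 in the sorted library against 0.198. Adra2a, a Gi-coupled receptor gene, had 11 counts against 147 and was 3.62-fold lower [1.97 to 7.42]. Adra1b, a Gq-coupled member, had 6 counts against 21, a ratio of 1.05 [0.348 to 2.70]. Adrb3 had 0 counts against 1, and Adra1a, Adra1d, Adra2b and Adra2c had none.

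Dopamine and serotonin receptors were near the limit of detection. Drd3, a Gi-coupled dopamine receptor gene, had 10 counts (0.821 CPM) against 32 (0.713 CPM), a ratio of 1.15 [0.505 to 2.40]. Drd2 had 1 count in the sorted library, and Drd1, Drd4 and Drd5 had none. Of 12 serotonin receptor genes, Htr2b, which couples to Gq, was measured, with 2 counts against 12, lower by a ratio of 1.63 [0.362 to 14.97]. Htr7, a Gs-coupled receptor gene just outside the minimum of 10, had 9 counts (0.739 CPM) against 1 (0.0223 CPM), a ratio of 33.2 [4.60 to 1455]. Htr1b had 1 count against 7, Htr6 had 0 against 3, and Htr2a, Htr2c and Htr5b had 1 in the sorted library. Htr1a, Htr1d, Htr1f, Htr4 and Htr5a had none. Where no read was counted, up to 3 counts remain possible, which is 0.246 CPM at the depth of the sorted library and 0.0668 CPM at that of the depleted one, so absence was not shown.

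Genes that supply or break down these amines lay mostly on the sorted side. From the catecholamine list 6 of 10 genes were measured, 5 of them higher and 0 lower, and their median log2 fold was 4.93. The share called higher over all measured genes was 21.9%. Ddc, the decarboxylase shared with serotonin synthesis, stood at 770.6 CPM against 7.26 CPM, and Slc18a1, a vesicular monoamine transporter, at 74.2 against 0.267 CPM. Maob, a monoamine oxidase, was 8.77-fold higher [7.68 to 10.05]. Th, the tyrosine hydroxylase gene, named after its value was seen, had 220 counts (18.1 CPM) against 2, a ratio of 406 [111 to 3370]. Dbh and Pnmt, which turn dopamine into noradrenaline and adrenaline, had no count in either library. For serotonin, 2 of 3 supply genes were measured and both were higher (median log2 fold 3.16). Tph1, the hydroxylase of serotonin synthesis, had 319 counts against 87 (13.5-fold higher [10.6 to 17.3]) and the reuptake transporter gene Slc6a4 had 24 against 15 (5.90-fold [2.97 to 12.1]).

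**Figure D3:**
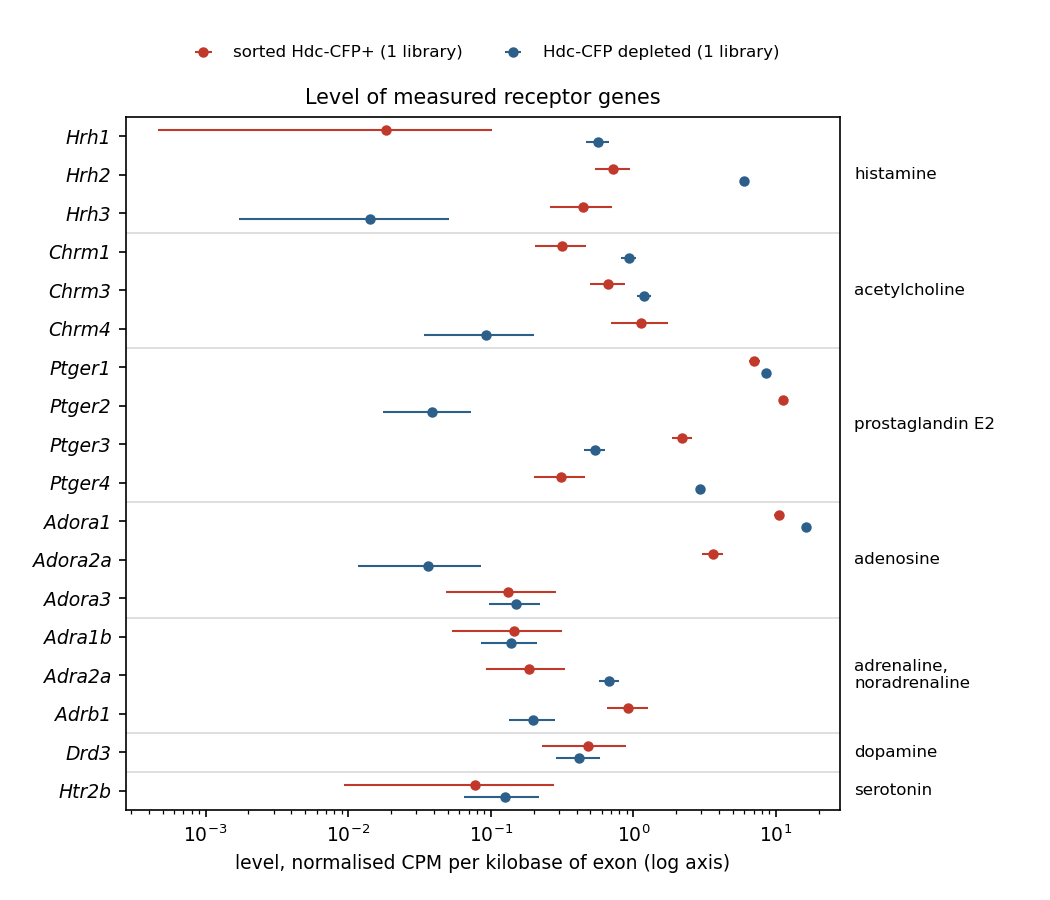
Level of 18 of the 19 measured receptor genes in normalised CPM per kilobase of exon (log axis) in the sorted (red) and depleted (blue) library; bars are 95% counting intervals and each group is 1 library. Ptger2 and Adora1 are highest in the sorted library at 11.3 and 10.5, and Adora1 is highest in the depleted library at 16.2.

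The order of levels was compared per kilobase of exon, where the median over all measured genes was 4.38 for sorted and 4.19 for depleted cells, and over the 19 receptors 0.670 and 0.536. In the sorted library Ptger2 (11.3) and Adora1 (10.5) came first, with overlapping intervals. Ptger1 (7.07), Adora2a (3.62) and Ptger3 (2.21) followed, each apart from its neighbours at this length. The intervals leave out the choice of length. The longest annotated transcript holds 3577 of the 5688 exon bases of Ptger3 and 2596 of the 3062 of Adora2a. The order and the gaps therefore hold for the exon length used, and the values of Ptger1 are uncertain as stated above. From Chrm4 (1.14) down to Hrh1 (0.0185) the interval of every gene overlapped that of the next. In the depleted library Adora1 (16.2) stood alone at the top. Among the genes below it were Ptger1 (8.53), Hrh2 (6.02), Ptger4 (2.93) and Chrm3 (1.19), each apart from the next. Ptger2 and Adora2a, both among the highest of the sorted library, were among the 3 lowest measured receptors of the depleted library, at 0.0386 and 0.0364. At least 1 CPM per kilobase was reached by 7 of these genes in the sorted and by 6 in the depleted library.

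Grouped by the G protein to which each receptor mainly couples, the 6 measured Gq-coupled genes held 0 higher and 2 lower (Hrh1 and Chrm1). The 6 measured Gs-coupled genes were all called, 3 higher (Ptger2, Adora2a and Adrb1) and 3 lower, among them Hrh2 and Ptger4. Their family, 13 genes with those under the minimum, summed to 82.4 CPM in the sorted library against 74.9 CPM, totals carried by different genes. The 7 measured Gi-coupled genes held 3 higher (Hrh3, Chrm4 and Ptger3), 1 lower (Adra2a) and 3 not called. Median log2 folds were -0.77 for Gq, -0.37 for Gs and 0.20 for Gi. Over all measured genes 21.9% were called higher and 21.9% lower, and groups this small support no statement about coupling. Kinases and arrestins that switch such receptors off held 2 higher, 2 lower and 3 not called of 7 measured genes, beside the same 21.9% each way. Grk3 was 7.78-fold higher in the sorted library [7.29 to 8.31], while Grk6 was 2.51-fold [2.32 to 2.73] and Arrb1 3.94-fold lower [3.58 to 4.34], and Grk2 stood at 183 against 159 CPM. Grk6 was 1.96-fold lower, and not called, when scaled by the library total alone.

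The mast cell, neuron and ghrelin and D cell markers that were higher in the sorted library moved with the 6 higher receptors, and their part in those values was not tested. The median log2 fold was 1.62 for the mast cell, 4.56 for the measured neuron and glia and 3.26 for the ghrelin and D cell markers.

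**Figure D4:**
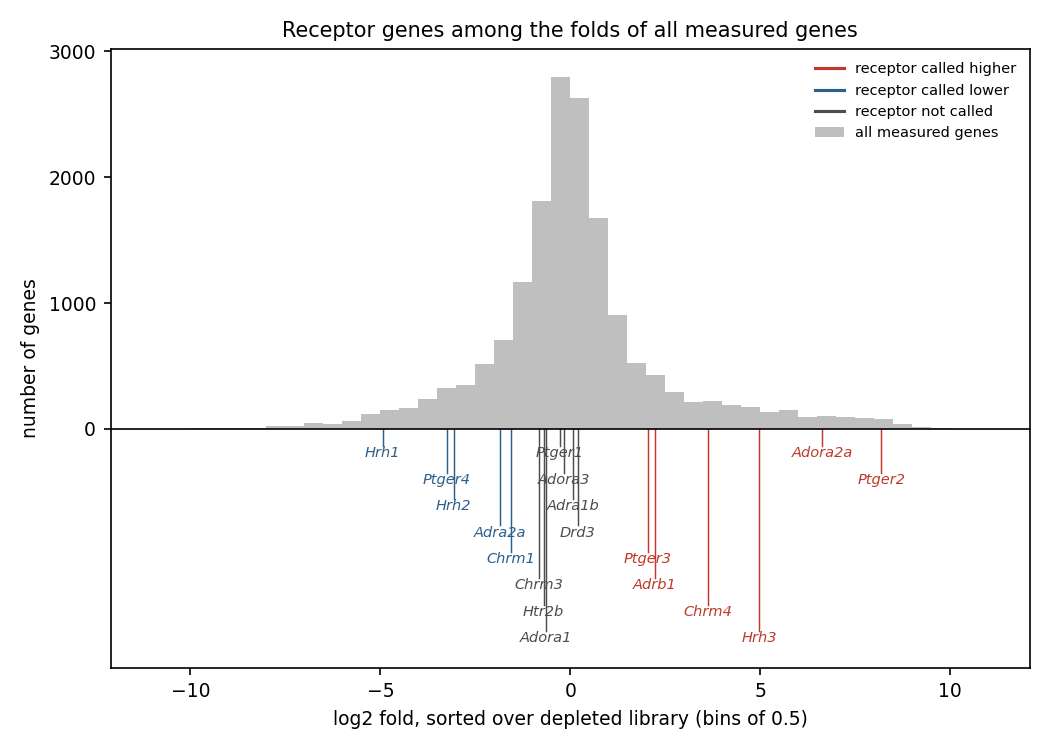
Number of measured genes by log2 fold of sorted over depleted library in bins of 0.5 (grey), with the positions of 18 of the 19 measured receptor genes marked below the axis and coloured by its call. Ptger2 at 8.19 and Adora2a at 6.64 lie in the right tail, and Hrh1 at -4.94, on 1 count in the sorted library, in the left.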

How the data were processed

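Each group held 1 RNA library. The submitters' processing notes name TopHat2 2.0.07, the mm9 genome and HTSeq. The deposited values are raw counts per Ensembl gene identifier. No version, strand setting or annotation release is given for HTSeq in the sources used here. The 5 summary rows, which name no gene, were left out; among them are reads that hit several genes (1.45% of alignments for sorted cells, 1.11% for depleted cells) and multiply aligned reads (24.2% and 34.3%), so near-identical and overlapping genes lose reads.

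Symbols were matched to 32642 of 37681 identifiers in GENCODE M21, which also gave exon lengths and overlaps. It is built on GRCm38, so coordinates are printed for RefSeq promoter windows alone, on GRCm38.p6. Libraries were scaled with edgeR 4.0.16 trimmed-mean (TMM) factors over the measured genes (sorted 1.13, depleted 0.882). Folds have exact Clopper-Pearson 95% intervals and levels exact Poisson 95% intervals. The fold intervals were tested on simulated counts that held counting error alone, which says nothing about variation between libraries. No fold is given for 89 measured genes with 0 counts in 1 library, where 3 allowed counts leave the direction unknown. PCR copies are not independent molecules, so both kinds of interval cover counting error only. Promoter windows matched 33 of the 43 genes, 15 of the 19 measured.

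Every receptor gene is accounted for, and up to 4 measured genes with the most CPM are named from each list of related genes. The values of some genes that this rule names are not reported here, and the counts include them. Others are said to be named after their values were seen. The receptors and lists were chosen with earlier results of these data known. Alternatives were scaling by the library total, by upper-quartile factors, by size factors of DESeq2 1.42.0 or by the total with the top 20 genes left out, other count minimums, a 4-fold rule and another length.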

Additional observations from a re-analysis of the deposited data

How the results depend on the processing

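The 6 receptor genes called higher and the 6 called lower kept their calls under all 4 other scalings. With the library total and no factor, the median log2 fold of the measured receptors turned from -0.27 to 0.0918, through Ptger1, the middle gene, which was not called under any scaling. Of the genes in the pathway lists, 16 were called lower. With the library total and no factor 14 were, as Grk6 (1.96-fold lower) and Slco2a1 (1.64-fold lower) fell short of 2-fold. Without the 20 most abundant genes 15 were, as Slco2a1 (1.83-fold lower) did. Without the minimum of 10 counts 7 genes were higher and 6 lower, with at least 20 counts 5 and 6, and with the 4-fold rule 6 and 4, where that rule called 13.6% of all measured genes higher and 11.3% lower. With the longest transcript as length, 9 in place of 7 genes reached 1 CPM per kilobase in the sorted library. No paired analysis was possible because each group held 1 library, and for the same reason no replicate was left out. Genes with few counts, such as Hrh1, Hrh3 and Htr7, have intervals that span over 10 times.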
